A study of Mus musculus with 24 samples.

Results

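The genes described here are 39 genes of the motile cilium and of the ependymal cell that carries it: 5 regulators of the cilium programme and 34 genes for the axoneme and for proteins associated with it. They were taken from a list of names and matched to gene symbols, and each gene was read from 1 probe set, the brightest by mean over the arrays among those that carry only its symbol. Of the 39 names, 36 were measured, and 27 of these passed the filter on dim genes (a mean log2 value of at least 3.76): 3 regulators and 24 axonemal and associated genes. Below, "axonemal genes" is short for these 24. They include 5 other cilia or ependymal genes (Ccdc153, Tmem212, Ak7, Mlf1 and Tppp3) and 1 dynein assembly factor (Zmynd10). The whole series has 17097 named genes, of which 13218 passed the same filter. Mcidas, Tekt4 and Dynlrb2 were not matched to a probe set with a single symbol, and Ccno, Dnah5, Dnaic2, Ccdc113, Spag6, Spag16, Spag17, Lrrc6 and Stoml3 lay below the filter and were not tested.

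Ependymal cells line the ventricles of the brain and move cerebrospinal fluid with tufts of beating cilia. The shaft of such a cilium, the axoneme, is a ring of microtubule doublets around a central pair; dynein arms on the doublets drive the beat, and radial spokes and the nexin-dynein regulatory complex coordinate it. Foxj1 is the transcription factor most closely tied to this programme, Rfx2 and Rfx3 bind X-box elements in promoters of cilium genes, and Mcidas and Ccno act in the amplification of centrioles. Ependymoma is a brain tumour with ependymal features.

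The 24 samples were tumours cut from mouse cortex, each profiled once by an Affymetrix array of total RNA. Each tumour grew from cells that expressed 1 gene, called the class gene: RAB3A (6 tumours; a small GTPase of synaptic vesicles), BC74C (9 tumours) or ZNF668 (9 tumours; a zinc finger protein). A tumour label divides the same samples into 11 ependymoma, 4 HGG (not expanded in the labels), 5 TUMOR and 4 UNKNOWN; strain, age, the recipient cells and how the gene was delivered are not given in the sources used here. Nothing in the labels says that the tumours came from separate animals, so a p-value measures the spread between these samples. Within each class gene the tumours are numbered in order of deposit, so "RAB3A 5" names a tumour and nothing else. No tumour-free cortex was analysed here, so every level below is a tumour set against other tumours.

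Array medians lay between 4.98 and 5.20 on the log2 scale, and no pair of arrays held identical values (Pearson r over probe sets 0.89 to 0.99). The sample titles start with elw (18 tumours) or mmr (6 tumours); what the prefix stands for is not given, and values within the elw tumours are given where they change a call. The samples are pieces of tissue, so fewer ciliated cells and less RNA per ciliated cell cannot be told apart. Levels of different probe sets are not compared with each other.

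Promoter sequences were searched close to the start of transcription for 1 fixed form of the X-box, the DNA element that RFX factors bind. RefSeq promoters of assembly GRCm38.p6 (250 bases before the start site and 50 from it) were found for 34 of the 39 genes and searched on both strands for the X-box (GTTNCC and GNAAC with any 3 bases between them), for the single arm GTTGCCA, which can lie within an X-box, and for the forkhead core TGTTTAC. The full X-box was present in 4 of the 34 (11.8%), namely Enkur, Hydin, Spag16 and Tekt4, against 253 of 27025 genes in the whole table (0.936%). The single arm was present in 8 of 34 (23.5%, against 5.03% of all genes) and the forkhead core in 3 of 34 (8.82%, against 4.05%). The X-box was also present in 6 of 56 genes of a wider motile cilia list (10.7%) and in 1 of 30 genes of primary cilia and intraflagellar transport (3.33%). These shares describe letters in a window and were not tested. Sites with other letters or spacing were not counted, so a gene without a match may still carry such a site. Dynlrb2, for example, holds gttgcctagcaac, with fewer bases between the arms. Windows of 140 bases before the start site and 20 from it follow for 6 genes named in the results, 5′ to 3′ along the gene, with matched motifs in capitals. Matches are more frequent among these 6 than among the 34. Cfap126, whose level also went with Foxj1, has no match in any of its promoters and is not printed. Enkur (chr2:21205346-21205505, minus strand), whose level went with Foxj1, has a full X-box across its start site. Tekt1 (chr11:72361863-72362022, minus strand) and Iqcg (chr16:33056167-33056326, minus strand) have the single arm. A further Tekt1 promoter (chr11:72361277-72361436, minus strand) has no match. Hydin (chr8:110266837-110266996, plus strand), the least variable tested member, has a full X-box on the opposite strand. Ak7 (chr12:105705842-105706001, plus strand) has a forkhead core, and Ccdc153 (chr9:44240537-44240696, plus strand), the most variable member, has no match to the 3 motifs.
Enkur: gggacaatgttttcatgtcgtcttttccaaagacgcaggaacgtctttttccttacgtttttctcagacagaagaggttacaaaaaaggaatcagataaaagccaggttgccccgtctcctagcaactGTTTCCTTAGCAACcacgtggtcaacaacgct
Tekt1: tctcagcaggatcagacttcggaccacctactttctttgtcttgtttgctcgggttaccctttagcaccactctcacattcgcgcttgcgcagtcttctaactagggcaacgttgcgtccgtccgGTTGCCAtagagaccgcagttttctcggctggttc
Iqcg: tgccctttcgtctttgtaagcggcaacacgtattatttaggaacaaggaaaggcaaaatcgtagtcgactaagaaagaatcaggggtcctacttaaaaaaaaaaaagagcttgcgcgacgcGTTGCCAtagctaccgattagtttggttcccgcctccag
Hydin: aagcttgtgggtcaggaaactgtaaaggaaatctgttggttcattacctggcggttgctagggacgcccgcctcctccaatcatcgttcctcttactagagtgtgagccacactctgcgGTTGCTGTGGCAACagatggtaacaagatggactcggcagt
Ak7: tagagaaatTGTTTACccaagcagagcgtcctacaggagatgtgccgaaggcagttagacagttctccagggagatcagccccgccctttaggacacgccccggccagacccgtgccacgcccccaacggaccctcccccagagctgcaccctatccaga
Ccdc153: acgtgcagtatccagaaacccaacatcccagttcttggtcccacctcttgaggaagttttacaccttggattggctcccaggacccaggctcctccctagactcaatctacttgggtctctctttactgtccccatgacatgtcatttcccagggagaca

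Across the 24 tumours many axonemal genes varied more than the typical gene. The mean of the 24 tested axonemal genes was highest in RAB3A 5 (6.14), BC74C 2 (5.96), RAB3A 4 (5.92) and BC74C 7 (5.69), and lowest in RAB3A 3 (4.55) and ZNF668 8 (4.65). These 4 tumours carry 4 different descriptions: UNKNOWN, ependymoma, TUMOR and HGG. Of the 24 axonemal genes, 16 had an SD over tumours above the median of all tested genes (0.44) and 4 were above the 90th percentile (1.02): Ccdc153 (SD 1.20), Tmem212 (1.14), Enkur (1.12) and Tppp3 (1.05). Ccdc153 is a coiled-coil protein used as an ependymal marker, Tmem212 a membrane protein enriched in ciliated cells, Enkur a protein of the inner wall of the doublet microtubules, and Tppp3 a tubulin-binding protein. Of these 4, all but Enkur belong to the other cilia or ependymal genes. Hydin, a central pair protein whose loss causes hydrocephalus in mice, varied least of the 24 (SD 0.20). This describes the probe set used, whose values lay between 3.86 and 4.83. The other Hydin probe set (mean 3.12) correlated with it at r = -0.09.

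**Figure D1:**
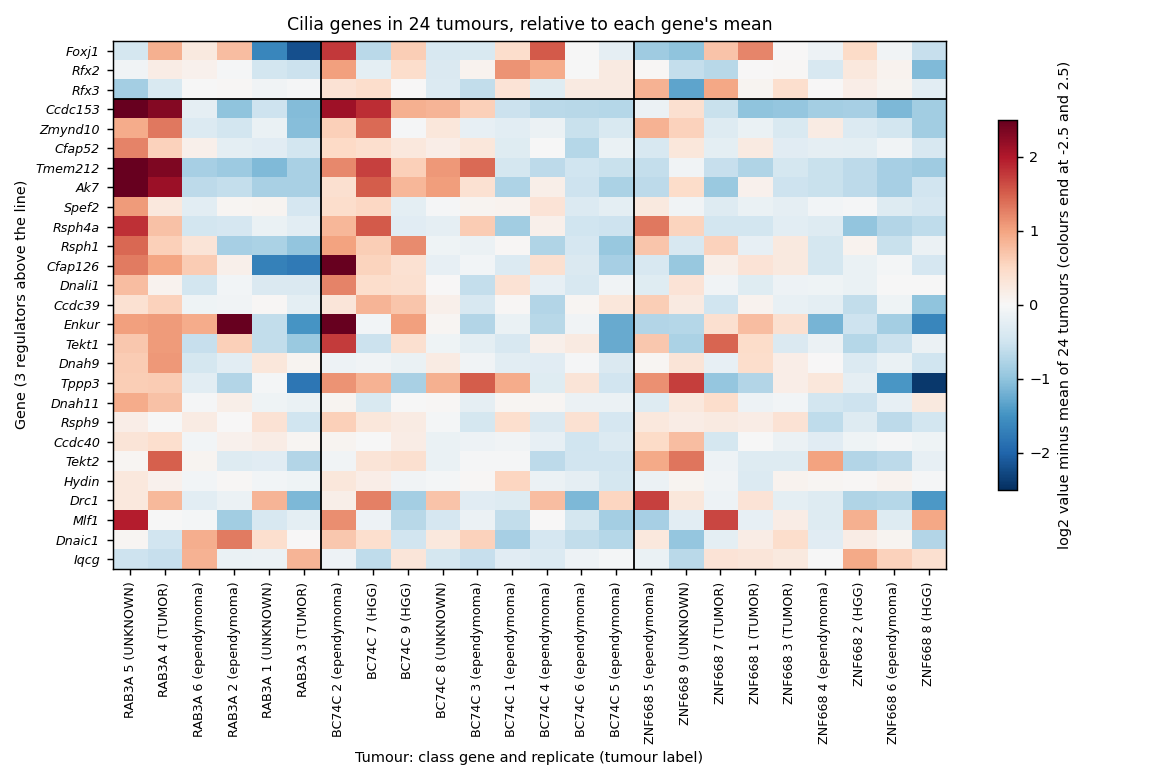
Log2 value of the 3 tested regulators (top rows) and the 24 tested axonemal and associated genes (below, ordered by likeness to the mean of the others) in each of 24 tumours, shown as the difference from the gene's mean, with red above and blue below it. Columns are grouped by class gene and ordered within it by the axonemal mean, so RAB3A 5 and RAB3A 4, BC74C 2 and BC74C 7 stand at the left of their groups with the reddest columns.

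The regulators overlapped between class genes. Foxj1 ranged from 4.16 to 7.25 in RAB3A tumours (median 6.25), from 5.68 to 8.12 in BC74C tumours (median 6.35) and from 5.35 to 7.58 in ZNF668 tumours (median 6.26). The ranges overlapped over most of their length; the lowest levels were those of RAB3A 3 and RAB3A 1 (4.16 and 4.72) and the highest those of BC74C 2 and BC74C 4 (8.12 and 7.89). Rfx2 lay between 3.92 and 4.65 in RAB3A tumours (median 4.40), between 4.10 and 5.60 in BC74C tumours (median 4.68) and between 3.36 and 4.73 in ZNF668 tumours (median 4.48). Its BC74C values reached above the other groups but overlapped with both. Rfx3 was 7.07 to 7.95, 7.31 to 8.35 and 6.60 to 8.88 in the 3 class genes in the same order, and Ccno was between 3.24 and 4.15 in every tumour, at the dim end of the scale.

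None of the 27 tested genes differed between class genes in limma after Benjamini-Hochberg adjustment over all 13218 genes. For RAB3A minus ZNF668, 0 of 27 were called, where 0.0757% of all genes were, and 0 had an unadjusted p under 0.05 (9.21% of all genes did). For BC74C minus ZNF668, 0 of 27 were called (0.303% of all genes), while 4 had an unadjusted p under 0.05 (6.88% of all genes did), 3 higher and 1 lower. For RAB3A minus BC74C, 0 of 27 were called (0% of all genes), and 0 had an unadjusted p under 0.05 (8.21% of all genes did). Comparisons with ZNF668 share the same ZNF668 tumours, and all 3 share a single estimate of the spread.

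Foxj1 was lower in RAB3A than in ZNF668 tumours by a log2 estimate of -0.37 ± 0.48 (SE; adjusted p = 0.756) and higher in BC74C than in ZNF668 tumours by 0.32 ± 0.43 (adjusted p = 0.972), both within the spread. The first was -0.0049 without RAB3A 3 and -0.62 without RAB3A 4, and the second was 0.14 without BC74C 2. The estimate for RAB3A minus ZNF668 became 0.87 within the ependymoma label, where RAB3A has 2 tumours. Rfx2 had the smallest p of the members in BC74C minus ZNF668 (0.62 ± 0.22, unadjusted p = 0.0085, adjusted p = 0.372), and this estimate was 0.34 within the elw tumours. Rfx3 differed by -0.33 ± 0.26 (adjusted p = 0.626) in RAB3A and by -0.07 ± 0.23 (adjusted p = 0.991) in BC74C, each against ZNF668; the former was -0.21 without RAB3A 5 and -0.51 without ZNF668 9.

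No radial spoke, dynein or ruler gene passed the threshold between class genes. Rsph4a, a spoke-head protein, ranged from 3.50 to 5.78 in RAB3A (median 3.73), from 3.08 to 5.49 in BC74C (median 3.73) and from 2.96 to 5.28 in ZNF668 tumours (median 3.50). In each class gene 1 tumour stood highest (RAB3A 5, BC74C 7 and ZNF668 5), and the groups overlapped throughout. Rsph1, another spoke-head protein, had means of 6.10 ± 0.98, 6.19 ± 0.74 and 6.13 ± 0.45 (SD) in RAB3A, BC74C and ZNF668 tumours. Dnah11, an outer arm dynein heavy chain, had the highest moderated statistic of the axonemal genes in RAB3A minus ZNF668 (0.33 ± 0.18, adjusted p = 0.545). Its values were 4.76 to 5.87 in RAB3A tumours (median 4.98) and 4.42 to 5.38 in ZNF668 tumours (median 4.80), which overlap, and the estimate was 0.20 without RAB3A 5. Dnah9, another outer arm heavy chain, and Ccdc40, which with Ccdc39 sets the spacing along the doublet, had estimates of 0.36 ± 0.19 (adjusted p = 0.617) and 0.30 ± 0.15 (adjusted p = 0.612) in RAB3A minus BC74C; that of Dnah9 was 0.19 without RAB3A 4. Dnali1, an inner arm light chain, was at -0.20 (adjusted p = 0.816) there. The second Dnah9 probe set, with a mean of 3.17, correlated with the one used at r = 0.28.

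Iqcg, a subunit of the nexin-dynein regulatory complex, was the member with the lowest moderated statistic in BC74C minus ZNF668 (-0.47 ± 0.21, unadjusted p = 0.0363, adjusted p = 0.657). Its values were 8.51 to 9.45 in BC74C tumours (median 8.86) and 8.47 to 10.08 in ZNF668 tumours (median 9.45). The second Iqcg probe set correlated little with the one used (r = 0.17), and with the mean of both the estimate was -0.10. It also ran against the other axonemal genes across the 24 tumours (r = -0.59 with their mean), which no other of the 24 did.

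Ccdc153, Tmem212 and Ak7 were high in several RAB3A and BC74C tumours and low in most others. Ccdc153 was 3.05 to 6.96 in RAB3A tumours (median 3.76), 3.42 to 6.24 in BC74C tumours (median 4.72) and 3.01 to 4.53 in ZNF668 tumours (median 3.29). RAB3A 4 and RAB3A 5 (6.42 and 6.96) and 5 of the 9 BC74C tumours (BC74C 2, 3, 7, 8 and 9, at 6.24, 4.72, 5.98, 4.98 and 5.02) lay above every ZNF668 tumour; the other RAB3A and BC74C tumours lay within the ZNF668 range. Tmem212 was 3.38 to 7.31, 3.82 to 6.19 and 3.58 to 4.38 in RAB3A, BC74C and ZNF668 tumours (medians 3.66, 5.08 and 3.87). The same 2 RAB3A tumours and the same 5 BC74C tumours exceeded every ZNF668 tumour. Ak7, an adenylate kinase of motile cilia, was 3.66 to 7.05, 3.67 to 5.98 and 3.54 to 4.92 (medians 3.84, 4.84 and 3.90), with the same 2 RAB3A tumours and with BC74C 7, 8 and 9 above the ZNF668 range.

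The fitted differences for these genes did not pass the threshold. In BC74C minus ZNF668 they were 1.07 ± 0.50 for Ccdc153 (unadjusted p = 0.0439, adjusted p = 0.701), 1.03 ± 0.48 for Tmem212 (unadjusted p = 0.0428, adjusted p = 0.697) and 0.70 ± 0.43 for Ak7 (adjusted p = 0.869). In RAB3A minus ZNF668 Ccdc153 gave 1.04 ± 0.56 (adjusted p = 0.545). That estimate rests on RAB3A 4 and RAB3A 5: it was 0.55 without RAB3A 5 and -0.05 without both. In BC74C minus ZNF668 the Ccdc153 estimate stayed between 0.86 and 1.21 with any 1 tumour left out.

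Among genes of the doublet wall, Enkur was 4.64 to 8.64 in RAB3A tumours (median 7.09), 4.86 to 8.63 in BC74C tumours (median 6.04) and 4.50 to 6.90 in ZNF668 tumours (median 5.42). RAB3A 2 and BC74C 2 were highest, at 8.64 and 8.63, and RAB3A 3 lay near the lowest ZNF668 tumour. The RAB3A minus ZNF668 estimate was 1.02 ± 0.55 (adjusted p = 0.545), and 0.63 without RAB3A 2. Cfap126, a protein of the doublet microtubules also named Flattop, was 4.25 to 7.32, 5.18 to 8.61 and 5.07 to 6.36 in RAB3A, BC74C and ZNF668 tumours (medians 6.40, 5.94 and 5.84), with BC74C 2 alone above 8. Tppp3, whose BC74C median of 9.19 compares with 8.16 in RAB3A and 8.08 in ZNF668 tumours, ranged from 5.90 in ZNF668 8 to 10.05 in ZNF668 9, so the ZNF668 tumours spanned all others.

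**Figure D2:**
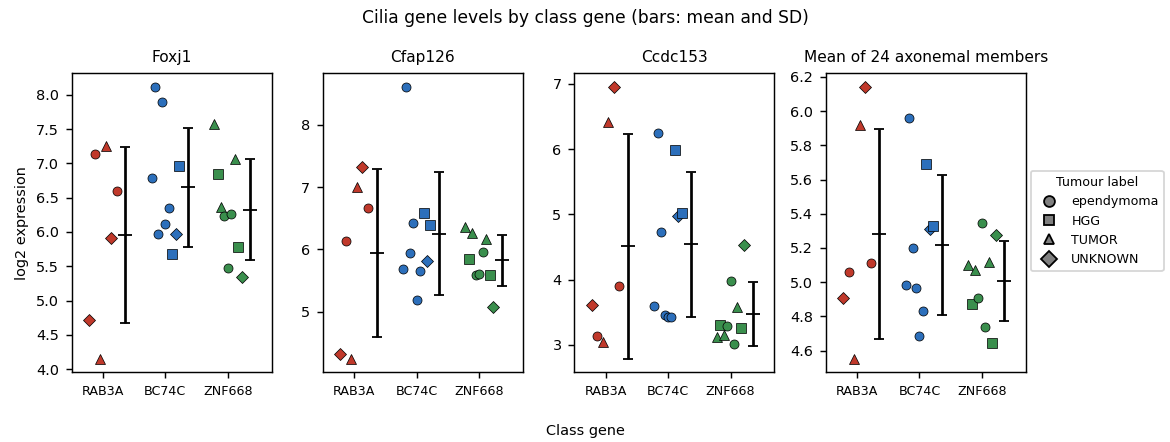
Log2 level of Foxj1, Cfap126, Ccdc153 and the mean of the 24 axonemal genes in each tumour, by class gene, with the tumour label as the marker shape and the group mean and SD as bars. The ZNF668 tumours hold Ccdc153 at 4.53 or less, while RAB3A 4 and 5 and 5 BC74C tumours lie above them, and the Foxj1 ranges overlap.

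As a group, the 24 axonemal genes had more positive than negative estimates against ZNF668: 20 of 24 in RAB3A (median 0.18, against -0.04 over all tested genes) and 18 of 24 in BC74C (median 0.19, against 0.0047). In RAB3A minus BC74C 14 of 24 were positive (median 0.05, against -0.04). Of all tested genes, 43.8% were positive in RAB3A minus ZNF668, 51.2% in BC74C minus ZNF668 and 44.0% in RAB3A minus BC74C. The axonemal genes vary together, so their estimates are not independent of each other. The RAB3A median was -0.06 without RAB3A 4 and 5. Within the ependymoma label, where RAB3A has 2 tumours, it was -0.03. The BC74C median was 0.10 to 0.26 with any 1 tumour left out, and was 0.07 within the ependymoma label. A wider motile cilia list (98 named genes, 46 tested) had medians of 0.0092 in RAB3A and 0.11 in BC74C against ZNF668, with 0 called in either; at an unadjusted p under 0.05, 2 were higher and 1 lower in RAB3A, and 3 were higher in BC74C, against 9.21% and 6.88% of all genes in either direction.

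No cilia gene passed the threshold between HGG and ependymoma, the only tumour labels compared in a fit. No RAB3A tumour is labelled HGG, so the contrast rests on BC74C (2 HGG, 6 ependymoma) and ZNF668 (2 HGG, 3 ependymoma) tumours. The HGG tumours BC74C 9 and ZNF668 8 have mmr titles, and no ependymoma tumour of BC74C or ZNF668 has. Label and title prefix are therefore not fully separate. In HGG minus ependymoma (15 tumours, class gene as a covariate), limma called 0 of 27 members and 0% of all genes, and 1 member had an unadjusted p under 0.05 (1.73% of all genes did). That member was Ak7, at 5.98 in BC74C 7, 5.29 in BC74C 9, 3.82 in ZNF668 2 and 3.996 in ZNF668 8, against 3.64 to 4.87 in the 11 ependymoma tumours (median 3.86). Both BC74C tumours labelled HGG were above all ependymoma tumours and both ZNF668 tumours were within their range. The estimate was 0.81 ± 0.29 (unadjusted p = 0.0155, adjusted p = 0.9998), and 0.50 without BC74C 7. Foxj1 was 5.68, 6.96, 6.84 and 5.78 in the same 4 tumours, inside the ependymoma range of 5.47 to 8.12 (estimate -0.16 ± 0.45). Tppp3 was 9.19, 7.50, 8.08 and 5.90 there, against 6.85 to 9.82 in ependymoma (-0.85 ± 0.56), and Rsph1 had an estimate of 0.65 ± 0.39. The Tppp3 estimate was -0.40 without ZNF668 8 and -1.32 without BC74C 7, and that of Rsph1 was 0.39 without BC74C 9. Over all tumours the mean of Rsph1 was 5.98 under elw titles and 6.64 under mmr titles. The axonemal mean was 5.69, 5.33, 4.87 and 4.65 in the 4 HGG tumours and 4.69 to 5.96 in ependymoma (median 4.99), so the labels overlapped. Of the 24 axonemal genes, 16 had positive estimates, where 50.2% of all genes did (median 0.09, against 0.00085 over all genes). The TUMOR and UNKNOWN labels were not tested. Foxj1 was 4.72 to 5.96 in the 4 UNKNOWN tumours (mean 5.49) and 4.16 to 7.58 in the 5 TUMOR tumours (mean 6.48). Its mean in ependymoma was 6.63.

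**Figure D3:**
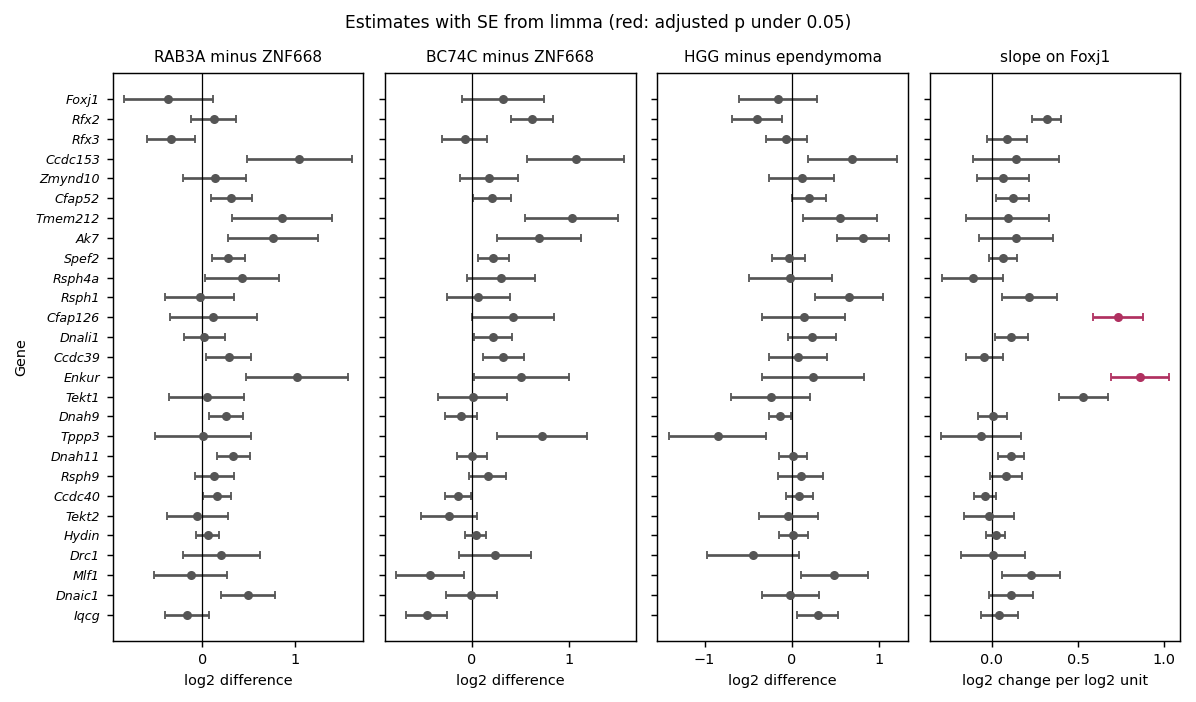
Estimate and SE from limma for each tested member in 3 comparisons (log2 difference) and for the slope on Foxj1 (log2 change per log2 unit of Foxj1), with genes past an adjusted p of 0.05 in red. Cfap126 and Enkur in the Foxj1 panel, with slopes of 0.73 and 0.86, are the genes in red.

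Across tumours, Cfap126 and Enkur rose with Foxj1. With class gene as a covariate, the slope on Foxj1 was 0.73 ± 0.15 for Cfap126 (adjusted p = 0.0311) and 0.86 ± 0.17 for Enkur (adjusted p = 0.0309), log2 units per log2 unit of Foxj1. These were the 2 of 26 members called, where 0.318% of the 13217 genes were (0.288% with a positive slope). By rank of p-value they stood 19th and 15th of all genes. In BC74C 2, with the highest Foxj1 (8.12), Cfap126 was 8.61 and Enkur 8.63; in RAB3A 3, with the lowest (4.16), they were 4.25 and 4.64. The tumours between these ends were ordered less strictly: Enkur was 5.43 in BC74C 4, whose Foxj1 was 7.89, and 7.14 in RAB3A 5, whose Foxj1 was 5.91.

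The call is close to the threshold. It was kept by both genes with 16 of the 24 tumours left out singly; 1 gene was called without RAB3A 4, BC74C 8 or ZNF668 9, and 0 without RAB3A 1, RAB3A 3, BC74C 2, BC74C 3 or BC74C 7. Without the 2 tumours farthest from the median Foxj1, RAB3A 3 and BC74C 2, the slopes were 0.49 for Cfap126 and 0.61 for Enkur (adjusted p = 0.121 and 0.117). Within the 18 elw tumours they were 0.72 and 0.85 (adjusted p = 0.0922 and 0.134).

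Tekt1, a tektin of the doublet wall, had a slope of 0.53 ± 0.14 (adjusted p = 0.102) and Rfx2 a slope of 0.32 ± 0.09 (adjusted p = 0.103); neither passed the threshold. Tekt1 was 6.35 in BC74C 2 and 3.66 in RAB3A 3, with ZNF668 7 (6.05) and RAB3A 4 (5.66) next highest. Over the 24 tumours the Pearson correlation with Foxj1 was 0.73 for Cfap126 (Spearman 0.64), 0.62 for Enkur (0.61), 0.59 for Tekt1 (0.53) and 0.63 for Rfx2 (0.61). Without RAB3A 3 and BC74C 2 these were 0.56, 0.46, 0.43 and 0.54. In all, 4 of 26 members had a slope on Foxj1 at an unadjusted p under 0.05, each positive. Over all genes 14.5% had such a slope, and 9.12% a positive one. Of these 4 members, Enkur has the X-box across its start and Tekt1 the single arm just before 1 of its starts, as printed above. Cfap126 and Rfx2 have no match. Motifs were not tested against slopes.

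Ccdc153, Tmem212 and Ak7 had correlations with Foxj1 near 0, of 0.11, 0.10 and 0.12 (Spearman -0.03, 0.04 and 0.11), and their slopes on it were not called; the difference from the slopes of Cfap126 and Enkur was not tested. RAB3A 5 and BC74C 7 show this: they held Ccdc153 at 6.96 and 5.98 with Foxj1 at 5.91 and 5.68, both below the Foxj1 median of 6.30, whereas BC74C 4 held Foxj1 at 7.89 and Ccdc153 at 3.46. Among themselves the 3 genes were closely tied: r was 0.95 for Ccdc153 with Tmem212 (Spearman 0.75), 0.93 for Ak7 with Tmem212 (0.72) and 0.90 for Ccdc153 with Ak7 (0.64). Without RAB3A 4 and RAB3A 5 these were 0.90, 0.85 and 0.81. In many tumours the 3 genes lay near the dim end of the scale, where values carry little order. These pairs were chosen after their values were seen, so the correlations are descriptions with no test.

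**Figure D4:**
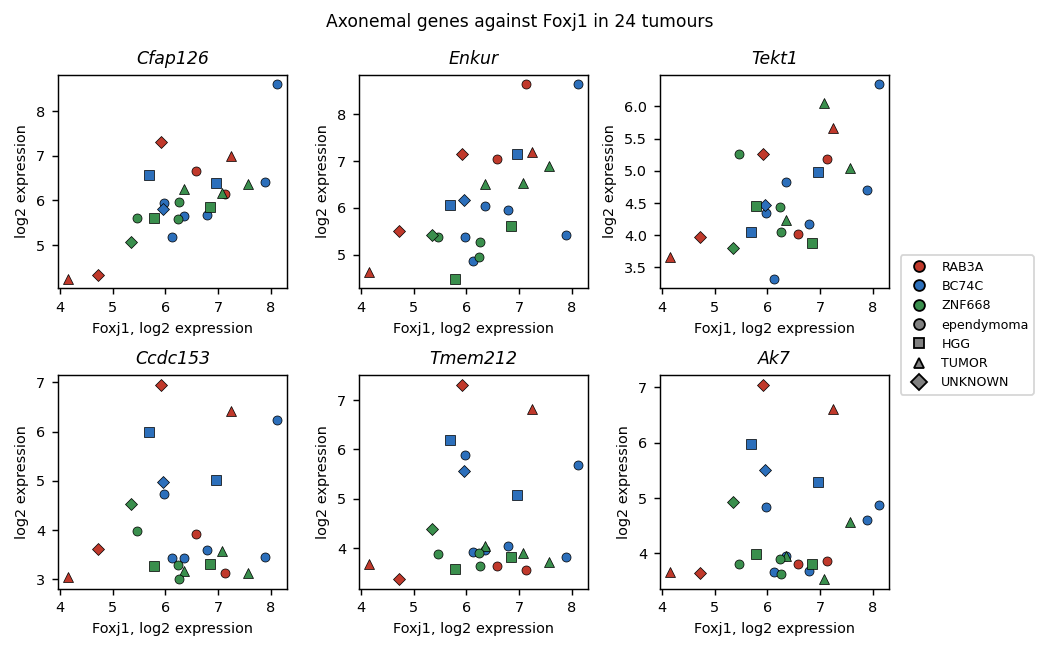
Log2 level of 6 axonemal and associated genes against that of Foxj1 in 24 tumours, coloured by class gene, with the tumour label as the marker shape. In the top row Cfap126, Enkur and Tekt1 climb with Foxj1 (r = 0.73, 0.62 and 0.59), and in the bottom row Ccdc153, Tmem212 and Ak7 have high tumours on both sides of the Foxj1 median (r = 0.11, 0.10 and 0.12).

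Over all 276 pairs of axonemal genes, the median correlation was 0.37, and 84 pairs (30.4%) were above 0.5, against a median of 0.0074 and 9.05% for all pairs of tested genes. Some of these pairs rested on RAB3A 4 and RAB3A 5. Without them r went from 0.55 to 0.10 for Dnah9 with Tmem212 and from 0.55 to -0.02 for Dnah11 with Ak7. For Rsph4a with Zmynd10 it went from 0.82 to 0.81. The summary over all pairs was not repeated without these tumours. Ccdc153 was most like the mean of the other axonemal genes (r = 0.91), followed by Zmynd10, a dynein arm assembly factor (0.84), Cfap52, a protein of the doublet wall (0.83), and Tmem212 (0.83). Dnaic1, an intermediate chain of the outer arm, was nearly unrelated to them (0.16); it was highest in RAB3A 2 (6.23) and RAB3A 6 (5.84), which have axonemal means of 5.06 and 5.11. Correlations of the regulators with the axonemal mean were weak: r was 0.28 for Foxj1, 0.24 for Rfx2, -0.17 for Rfx3 and -0.16 for Ccno, which lay below the filter.

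The slopes on the other regulators called no member. On Rfx2, 0 of 26 were called (0.0151% of all genes) and 3 had an unadjusted p under 0.05 (9.43% of all genes did): Foxj1 itself (slope 1.28 ± 0.33, adjusted p = 0.165), Cfap126 (0.91 ± 0.38, adjusted p = 0.434) and Enkur (0.97 ± 0.45, adjusted p = 0.502). Without BC74C 2 the slopes of Cfap126 and Enkur were 0.60 and 0.64. On Rfx3, 0 of 26 were called (0.0227% of all genes), and 3 had an unadjusted p under 0.05, where 22.1% of all genes did. These had negative slopes: Ak7 (-0.92 ± 0.36, adjusted p = 0.164), Cfap52 (-0.39 ± 0.16, adjusted p = 0.181) and Ccdc40 (-0.24 ± 0.12, adjusted p = 0.221). The Ccdc40 slope was 0.19 within the elw tumours, and that of Cfap52 was -0.26 without RAB3A 5. Rfx2 and Rfx3 have further probe sets that correlated with the ones used at -0.31 and 0.06 for Rfx2 and 0.62 for Rfx3. In the wider list of 46 motile cilia genes, 0 were called in the slope on Foxj1 and 11 had an unadjusted p under 0.05, all positive (9.12% of all genes had a positive slope at that level and 14.5% a slope of either sign); the highest was Nme5, a nucleoside diphosphate kinase homologue of the axoneme (0.53, adjusted p = 0.0887). In the 35 genes of primary cilia and intraflagellar transport 0 were called on Foxj1, with 2 higher and 3 lower at an unadjusted p under 0.05, against the same 14.5% of all genes.

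Of genes outside the list, those most like the mean of the axonemal genes over 24 tumours were Fam183b (r = 0.92), Cfap161 (0.87), Eno4 (0.85), Zic4 (0.82), Cdhr4 (0.82), Ubxn11 (0.81), Csf2rb2 (0.81), Psen2 (0.80), Ppp1r32 (0.79) and Arrdc1 (0.78). Fam183b and Cfap161 belong to the wider motile cilia list. Each of the 10 was highest in RAB3A 5 or RAB3A 4.

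Markers of the choroid plexus, the ciliated epithelium that secretes cerebrospinal fluid, were high in 2 of the 4 tumours with the highest axonemal mean. The mean of 11 tested choroid plexus markers was 7.09 in BC74C 2 and 6.91 in RAB3A 5, and 5.52 or less in the other 22 tumours. Ttr (transthyretin), Folr1 and Kl were 13.13, 6.93 and 6.55 in BC74C 2 and 12.89, 6.60 and 6.66 in RAB3A 5. In RAB3A 4 and BC74C 7 Ttr was 9.81 and 8.46, Folr1 was 4.06 and 3.41 and Kl was 3.52 and 3.74. Folr1 and Kl in the tumours other than BC74C 2 and RAB3A 5 lay between 3.18 and 4.39 and between 2.95 and 4.60. Otx2 and Kcnj13 were also highest in RAB3A 5 and BC74C 2, and Otx2 was 5.58 in RAB3A 4. Clic6 was 8.94 in RAB3A 5, 8.32 in BC74C 7 and 8.18 in BC74C 2. Ttr, however, was 11.88 in ZNF668 8 and 11.74 in ZNF668 9, whose axonemal means were 4.65 and 5.27. Cldn2 was highest in RAB3A 2 (11.57) and Aqp1 in BC74C 6 (7.89). Steap1 and Sostdc1 in RAB3A 5 (4.97 and 4.39) lay within the range of the other tumours. Ranges of the choroid plexus mean were 4.17 to 6.91 in RAB3A, 3.98 to 7.09 in BC74C and 4.07 to 5.52 in ZNF668 tumours. Over 24 tumours this mean went with the axonemal mean at r = 0.67, which was 0.27 without BC74C 2 and RAB3A 5.

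**Figure D5:**
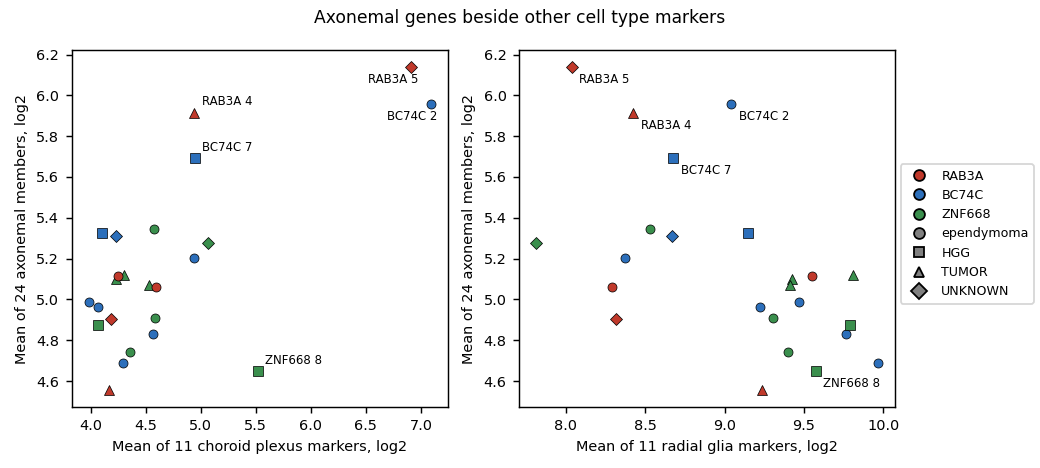
Mean log2 level of the 24 axonemal genes against the mean of 11 choroid plexus markers (left) and of 11 radial glia markers (right) in 24 tumours, coloured by class gene, with the tumour label as the marker shape. BC74C 2 and RAB3A 5 lie apart at 7.09 and 6.91 on the choroid plexus axis. RAB3A 4 and BC74C 7 have high axonemal means with choroid plexus means of 4.94 and 4.95, above the median of 4.44 over all tumours.

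With the choroid plexus mean as a covariate both Foxj1 calls remained (Cfap126 slope 0.66, adjusted p = 0.00309; Enkur 0.82, adjusted p = 0.0244). Without BC74C 2 and RAB3A 5 the slope of Cfap126 was 0.60 (adjusted p = 0.0357) and that of Enkur 0.74 (adjusted p = 0.0975), so 1 call remained. The Ccdc153 estimates against ZNF668 were then 0.55 in RAB3A and 0.86 in BC74C. Other marker lists moved with the axonemal mean to differing degrees: r was -0.58 for radial glia, 0.31 for neurons, -0.16 for proliferation and -0.05 for astrocytes. Without BC74C 2 and RAB3A 5 these were -0.56, 0.39, -0.47 and -0.12. The neuron means were 7.64 to 10.48, 6.67 to 10.35 and 4.91 to 10.06 in RAB3A, BC74C and ZNF668 tumours, and the radial glia means 8.04 to 9.55, 8.37 to 9.97 and 7.81 to 9.81. Their part in the axonemal differences was not tested beyond the covariate fits given.

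Among the members below the filter, most were flat near the dim end: Spag17 was between 3.08 and 3.63 in all tumours and Dnah5 between 2.73 and 3.59. Dnaic2 reached 6.16 in BC74C 2, Lrrc6 reached 4.99 in BC74C 7 and Stoml3 reached 4.55 in RAB3A 5, each a tumour with a high axonemal mean. Next highest were BC74C 9 for Dnaic2 (5.34), RAB3A 1 for Lrrc6 (4.79) and BC74C 6 for Stoml3 (4.20). The axonemal means of BC74C 9, RAB3A 1 and BC74C 6 were 5.33, 4.91 and 4.83. Spag6 shares sequence with a near copy, Spag6l, so the signal of either may be shared. Spag6l was highest in BC74C 7 (6.20) and RAB3A 5 (6.13). Spag6 stayed at 4.54 or less and was highest in RAB3A 1.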

How the data were processed

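Total RNA of 24 mouse tumours was hybridised to single-colour Affymetrix arrays, per the labels' protocols. The authors deposited 1 log2 value per probe set and tumour; Partek 6.6 was used, per the submitters' processing notes, and the background correction and normalization are not given in the sources used here. Values lie between 2.40 and 13.85. Probe-level background was not analysed here, and the number of arrays limits the precision. Of 45141 probe sets, 104 controls, 551 with several symbols and 15588 with none were left out, and genes under the 30th percentile (3.76) were not tested.

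limma 3.58.1 in R 4.3.3 (lmFit, eBayes with an intensity trend) was run two-sided on all tested genes, with Benjamini-Hochberg adjustment and a threshold of 0.05. Class genes were compared in a model of 24 tumours, HGG with ependymoma in 15 with class gene as a covariate, and slopes on Foxj1, Rfx2 and Rfx3 were fitted in 24 with class gene as a covariate. No slope was fitted on Mcidas (not matched) or Ccno (below the filter). On simulated data with 200 changed genes, those changed by 1 log2 unit were recovered in 66% (RAB3A minus ZNF668), 58% (BC74C minus ZNF668), 54% (RAB3A minus BC74C) and 42% (HGG minus ependymoma) of cases. The simulated noise was independent between genes, and no tested member was among the changed genes. These shares therefore do not give the power to call the members. In RAB3A minus ZNF668 the SE was 0.56 for Ccdc153 and 0.55 for Enkur, against a median of 0.23 over all genes.

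Named are the 5 regulators; per comparison the members called and the 3 axonemal genes at each end of the moderated statistic, those near 0 only in part; the most variable members; and the 10 most similar genes outside the list. Other genes were named after their values were seen. The members and all lists were chosen with earlier results of these data known. Alternatives left out single tumours, changed filters, normalization, weights, covariates and subsets; those leaving out pairs of tumours or using the choroid plexus covariate were chosen after seeing the data.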

Additional observations from a re-analysis of the deposited data

Results flagged for a closer look

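In 6 of 108 groups of a gene's values the most extreme tumour stood apart by Dixon's criterion at the 95% level; chance gives about 1 in 20, or 5.4 of 108. Each such tumour was the highest of its group. BC74C 2 stood apart among BC74C tumours for Cfap126 (8.61, next 6.58) and for Mlf1 (5.63, next 4.49). RAB3A 5 stood apart among RAB3A tumours for Mlf1 (6.43, next 4.46), and RAB3A 4 for Tekt2 (5.42, next 3.99). ZNF668 9 stood apart among ZNF668 tumours for Dnali1 (4.74, next 4.40). BC74C 7 stood apart among the 4 HGG tumours for Ccno (4.05, next 3.49).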

How the results depend on the processing

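No paired analysis was possible because the replicate numbers only follow the order of deposit. In the class gene and HGG comparisons, 0 members were called under every alternative run. In the slope on Foxj1 the count of 2 members became 4 with array weights (where 1054 genes were called in all, against 42), 1 without a class gene covariate, 1 without both BC74C 2 and RAB3A 5, and 0 in the elw tumours, in the ependymoma label and without the 2 tumours farthest from the median Foxj1; with single tumours left out it was 0 to 2. With array weights the slope on Rfx2 called 1 member and that on Rfx3 called 3. The share of all genes called in these weighted fits is not given here, so these counts are not a result about the members. With single tumours left out the Rfx3 count was 0 to 1, the 1 being without ZNF668 5. The causes were not tested.

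Signs turned for estimates that had not passed the threshold. With array weights these were Tekt2 in RAB3A minus ZNF668 (0.12), Foxj1 in HGG minus ependymoma (0.080) and Ccdc40 on Foxj1 (0.00014). In the elw tumours they were Rfx2 (-0.22) and Tekt2 (0.057) in RAB3A minus ZNF668, Rfx3 (0.14), Tppp3 (0.089) and Drc1 (0.24) in HGG minus ependymoma, Rfx3 (-0.052) and Ccdc40 (0.022) on Foxj1, and Foxj1 (-0.48) and Ccdc40 (0.19) on Rfx3. With the neuron covariate they were Iqcg (0.12) and Mlf1 (0.17) in RAB3A and Rfx3 (0.0036) in BC74C, each minus ZNF668. Without both RAB3A 4 and 5 they were Iqcg (0.14) and Ccdc153 (-0.046) in RAB3A minus ZNF668. In the ependymoma label they were Foxj1 (0.87), Iqcg (0.23) and Mlf1 (0.042) in RAB3A minus ZNF668, Mlf1 (0.35) in BC74C minus ZNF668, Cfap126 (0.15) and Dnah9 (-0.16) in RAB3A minus BC74C, Rfx3 (-0.0048), Rsph4a (0.074) and Ccdc40 (0.051) on Foxj1, Ak7 (0.080) and Rsph4a (0.16) on Rfx2, and Foxj1 (-0.018), Ccdc40 (0.28) and Dnaic1 (-0.21) on Rfx3. With the mean over probe sets they were Rfx3 (0.090) in HGG minus ependymoma and Rsph4a (0.020) on Rfx2, and under a block for title prefix Rfx3 (0.082) and Drc1 (0.041) in HGG minus ependymoma. Without a class gene covariate Ak7 (0.14), Tmem212 (0.31) and Rsph4a (0.032) turned on Rfx2; without the 2 farthest tumours Ak7 (0.055) and Rsph4a (0.0074) did on Rfx2, and Foxj1 (-0.18) and Ccdc40 (0.088) on Rfx3.

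With single tumours left out, ranges that crossed 0 were Mlf1 -0.50 to 0.061 and Tekt2 -0.34 to 0.10 (RAB3A minus ZNF668), Rfx3 -0.25 to 0.032 (BC74C minus ZNF668), Cfap126 -0.58 to 0.034 (RAB3A minus BC74C), Foxj1 -0.43 to 0.23 and Rfx3 -0.23 to 0.070 (HGG minus ependymoma), Ccdc40 -0.069 to 0.0053 and Ccdc39 -0.11 to 0.021 (on Foxj1), and Ak7 -0.32 to 0.048, Tmem212 -0.31 to 0.075 and Rsph4a -0.23 to 0.14 (on Rfx2).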
